A study of Mus musculus with 18 samples.

Results

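The collagen genes are the protein-coding genes whose symbol reads Col, a type number, the letter a and a chain number. The deposited liver table held 44 of them among 54532 genes, of which 22046 were protein coding. By collagen type, 11 were fibrillar (types I, II, III, V, XI, XXIV and XXVII), 8 were basement-membrane collagens (types IV, XV and XVIII) and 25 belonged to other types. The values are RNA-seq levels of whole liver from 18 male mice in 3 groups of 6, of the strain C57BL/6 by the labels and C57BL/6J by the methods of the study. The NC mice (titled CHOW) ate normal chow. The HFD mice, the HFD control group, ate a high-fat diet and received saline. The SZ-A mice (titled SZ) ate the same high-fat diet and received Ramulus Mori (Sangzhi) alkaloids, an alkaloid preparation from mulberry twigs. The HFD was fed for 14 weeks before treatment, and SZ-A was then given for 6 weeks by the study's methods and 8 weeks by the text filed with the series. The mice were 6 weeks old on arrival. Which dose and route the sequenced SZ-A mice had received is not given in the sources used here. The label of NC6 gives its diet as high-fat although its title places it in the chow group, so the counts of called collagen genes that involve NC are also given without that mouse, while the other values include it.

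Collagens are the main structural proteins of the extracellular matrix. Their chains repeat a triplet of glycine and any pair of other residues (glycine-X-Y), which lets them wind into a helix with each other. In fibrillar collagens the helix is long and unbroken and packs into stiff fibrils, whereas type IV chains are interrupted and assemble into the sheet-like network of basement membranes. In liver, hepatic stellate cells are a main source of the fibrils laid down in fibrosis, sinusoidal endothelial cells also contribute type IV collagen, and hepatocytes are the main source of type XVIII collagen, the precursor of endostatin.

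The difference between the classes can be read in the coding exons. The first 3 sequences below are 54-base exons from inside the longest glycine run of the genes for type I and type III collagen, the classic fibrillar chains. Capitals mark the first 2 bases of the glycine codon (GGN, N being any base) that opens each triplet and recurs every 9 bases. Glycine codons at other places are left in lower case. Col1a1 exon 8 lies at chr11:94939904-94939957 on the plus strand, Col1a2 exon 8 at chr6:4515481-4515534 on the plus strand and Col3a1 exon 6 at chr1:45325360-45325413 on the plus strand (GRCm38, GENCODE M21).
Col1a1 exon 8: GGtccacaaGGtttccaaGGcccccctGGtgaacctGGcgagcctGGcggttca
Col1a2 exon 8: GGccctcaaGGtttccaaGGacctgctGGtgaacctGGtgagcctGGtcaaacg
Col3a1 exon 6: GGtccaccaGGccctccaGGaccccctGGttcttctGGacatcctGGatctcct
The next pair shows a break of the repeat in the type IV chains, the first that follows a run of at least 10 triplets, with a stretch of glycine triplets on either side. Both stretches are spliced, with introns removed. That of Col4a1 spans chr8:11244495-11245066 on the minus strand and that of Col4a2 spans chr8:11402172-11403010 on the plus strand.
Col4a1 break: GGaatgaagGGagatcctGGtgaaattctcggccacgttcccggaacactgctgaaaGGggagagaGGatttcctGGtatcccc
Col4a2 break: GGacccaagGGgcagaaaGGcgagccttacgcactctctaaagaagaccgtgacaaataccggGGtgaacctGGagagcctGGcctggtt
In the 3 fibrillar exons the opening glycine codon returns without a gap, whereas the repeat stops for 10 codons in Col4a1 and for 12 codons in Col4a2 before it resumes.

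Over the whole coding sequence the longest unbroken run reached 338 triplets in Col1a1, 339 in Col1a2 and 344 in Col3a1. Across all 11 fibrillar genes it ranged from 216 to 344 triplets, with the shortest runs in Col24a1 (216) and Col27a1 (217). Among the 8 basement-membrane genes the longest runs were only 30 to 66 triplets, with 40 in Col4a1 and 66 in Col4a2. The fibrillar repeats were broken 1 to 4 times per gene and the basement-membrane repeats 12 to 26 times. Coding exons of exactly 54 bases made up 41.2% to 55.0% of the coding exons of fibrillar genes and 2.13% to 7.32% of those of basement-membrane genes. The fibrillar and basement-membrane classes did not overlap in either feature. The other collagens had longest runs of 23 to 113 triplets, with a median of 52, and up to 44.4% of their coding exons had 54 bases.

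**Figure D1:**
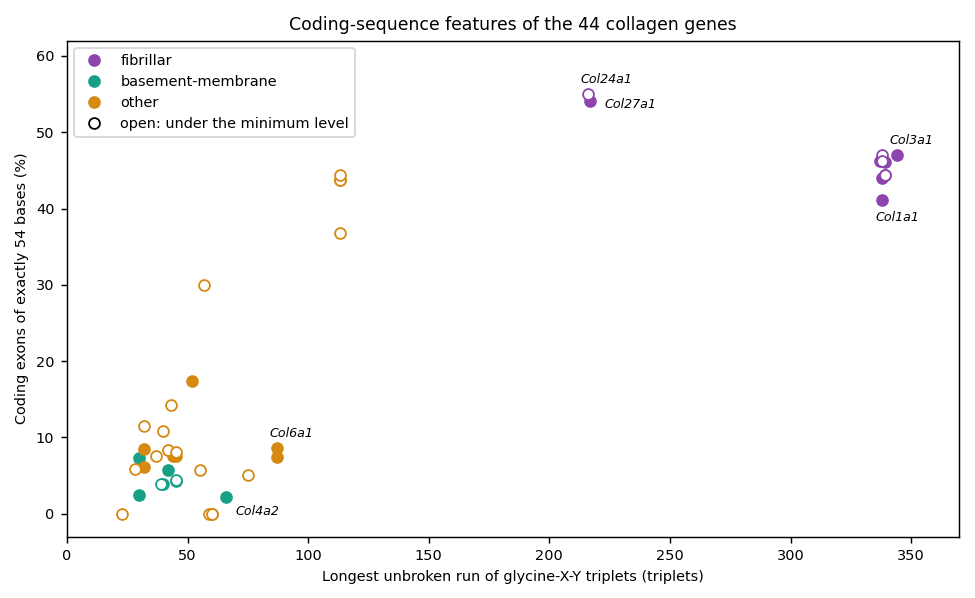
Longest unbroken run of glycine-X-Y triplets (horizontal axis, triplets) against the share of coding exons that are exactly 54 bases long (vertical axis, percent) for the 44 collagen genes, 1 point per gene, coloured by class and open where the gene lay under the minimum level. The fibrillar genes sit apart at 216 to 344 triplets, and no other gene exceeds 113.

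Liver expressed a minority of the family above a low level. Of the 44 genes, 19 had a mean of at least 0.1 FPKM (fragments normalised to exon length and library size) over the 18 mice and were tested. They were 7 of 11 fibrillar, 5 of 8 basement-membrane and 7 of 25 other collagens, and each also reached that mean within every group, so none was tested only through the group where it was high. Of the 25 genes left out, 13 had fewer than 10 fragments in every mouse and 3 (Col11a1, Col19a1 and Col26a1) were listed at 0 in all 18 mice. The cartilage collagen Col2a1 had 1 fragment in 1 mouse. No gene left out exceeded 0.202 FPKM in any mouse. The genes nearest to the minimum were Col11a2 with a mean of 0.0949 FPKM and Col8a1 with 0.0949 FPKM on the low side, and Col12a1 with 0.202 FPKM on the high side.

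The library sizes ranged from 17163191 to 20493907 fragments on genes per mouse. The library size by which FPKM was divided was 0.933 to 1.02 times these fragments in NC, 0.998 to 1.14 times in HFD and 0.972 to 1.05 times with SZ-A, so the divisor tended to be larger in HFD. With FPKM rescaled to a common sum, 14 collagen genes were called in HFD against NC, beside 18.7% of all genes (15.3% as deposited). None was called in SZ-A against HFD, beside 1.04% of all genes (0.0438% as deposited). Because collagen genes other than Col18a1 are of low level in liver, few fragments stood behind some values. Col1a1 rested on 46 to 150 fragments per NC mouse and 178 to 1386 per HFD mouse. Col12a1, the lowest of the tested genes by FPKM, rested on 26 to 134 fragments per NC or HFD mouse. The fewest fragments stood behind Col4a5, with 28 to 38 per NC mouse, 13 to 81 per HFD mouse and 14 to 27 per SZ-A mouse. FPKM divides by a gene length that joins all annotated exons. For 4 tested genes this length exceeded the principal transcript by over 1.5 times (2.32 times for Col1a2, 2.11 for Col6a2, 1.76 for Col3a1 and 1.71 for Col27a1), so their FPKM understates them beside other genes. Plain FPKM ratios of 1 gene between mice are not touched, but sums and shares of FPKM over several genes carry this limit. The fitted fold changes carry it in part, since the added 0.1 shrinks them more where FPKM is lower. The minimum level carries it too: Col8a1, with a length 1.53 times its principal transcript, stayed under it at a mean of 0.0949 FPKM. The labelled tissue was borne out by its defining markers, with albumin (Alb) at a median of 27746 FPKM in NC, 20640 in HFD and 19657 under SZ-A.

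By level, Col18a1 stood far above the rest, with medians of 135 FPKM in NC, 133 in HFD and 152 under SZ-A. Its share of all collagen FPKM was 69.1% to 84.9% in NC, between 59.4% and 76.7% in HFD, and between 75.7% and 84.8% under SZ-A. Without Col18a1, the summed collagen level ranged from 23.3 to 35.2 FPKM in NC (median 29.0), from 40.6 to 91.3 in HFD (median 63.7) and from 30.6 to 45.4 in SZ-A (median 37.1). The NC and HFD mice did not overlap in this sum, and SZ-A mice lay between, overlapping both. In NC liver the next levels were those of Col14a1 (median 5.71 FPKM), Col4a1 (5.26) and Col4a2 (3.71), of which Col4a1 and Col4a2 did not overlap over mice while Col14a1 overlapped both. The type I and III genes were minor in NC, at medians of 0.692 to 1.36 FPKM as deposited, a scale that understates Col1a2 and Col3a1. In HFD Col3a1 (9.20) came near the level of Col4a1 (10.1) on that scale.

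**Figure D2:**
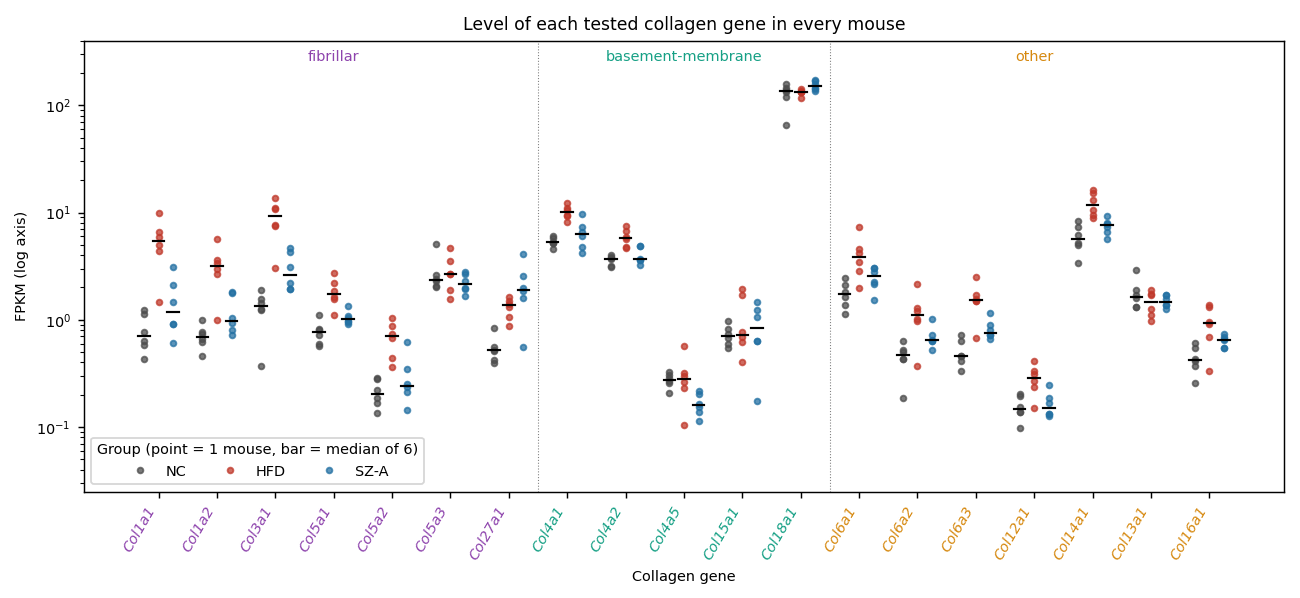
FPKM (vertical log axis) of the 19 tested collagen genes in every mouse, by class; points are single mice coloured by group (NC, HFD, SZ-A) and black bars are medians of 6 mice. Col1a1, Col1a2 and Col3a1 are the genes whose HFD medians lie farthest above NC, whereas Col18a1 stays between 118 and 171 FPKM in all but 1 mouse, an NC mouse at 65.8.

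The first comparison asked how the high-fat diet changed collagen expression. Compared with NC, 12 of the 19 tested collagen genes rose in HFD liver and none fell (limma, Benjamini-Hochberg adjusted p under 0.05 and fold change over 1.2), where 15.3% of all 15996 genes tested were called, 8.87% higher and 6.42% lower. The rise covered 6 of 7 fibrillar, 2 of 5 basement-membrane and 4 of 7 other collagens. The median log2 fold change was 1.29 for the fibrillar class, 0.28 for the basement-membrane class and 1.06 for the others, beside -0.01 for all genes tested. The basement-membrane median was the value of Col15a1, the middle of 5 genes. With a mouse left out it ranged from 0.12 (without HFD1 or HFD4) to 0.47 (without HFD5). The fibrillar median then ranged from 1.17 to 1.43 and that of the others from 0.91 to 1.14. In 8 of the 19 genes every HFD mouse was above every NC mouse, against 4.76% of all genes (3.55% were lower without overlap). Without NC6 the count stayed at 12 (beside 14.8% of all genes), but Col6a2 lost its call and Col16a1 gained one. Without HFD5, the HFD mouse with the lowest collagen levels, the count was 14 (beside 14.7% of all genes).

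Type I collagen, made of Col1a1 and Col1a2 chains, is the principal fibril of scar tissue. Col1a1 (ENSMUSG00000001506, chr11:94936224-94953042) was at 0.433, 0.702 and 1.23 FPKM in NC (lowest, median and highest mouse, in this order throughout), 1.46, 5.42 and 9.99 in HFD, and 0.606, 1.19 and 3.09 in SZ-A. All HFD mice lay above all NC mice, although HFD5 at 1.46 came close to the highest NC mouse. The log2 fold change was 2.53 ± 0.38 (SE; adjusted p = 0.00106). Its partner Col1a2 (chr6:4504814-4541544) was at 0.462, 0.692 and 1.01 FPKM in NC, 0.995, 3.18 and 5.65 in HFD, and 0.723, 0.982 and 1.80 in SZ-A. HFD5 at 0.995 fell just inside the NC range and the other 5 HFD mice were above it. Col1a2 rose by a log2 fold change of 1.91 ± 0.32 (adjusted p = 0.00183).

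Type I collagen is a trimer with more of the Col1a1 chain than of the Col1a2 chain. Expressed per length of the principal transcript, the Col1a1 to Col1a2 ratio was 0.441 to 0.758 in NC, between 0.701 and 0.923 in HFD, and between 0.363 and 0.829 under SZ-A, with medians of 0.482, 0.785 and 0.580. HFD mice were higher than all but 1 of the NC mice by this ratio, and the SZ-A mice spread across both. The ratio stands on the lengths of the principal transcripts named in GENCODE M21, and another length would move all mice by the same factor. The fragments were counted over all annotated exons, so those outside the principal transcript are included. Whether their part differed between groups was not tested.

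Col3a1 (chr1:45311538-45349706), the chain of type III collagen, which forms thin reticular fibres in the liver lobule, had the largest log2 fold change among the 19 genes. It was at 0.371, 1.36 and 1.89 FPKM in NC, 3.03, 9.20 and 13.8 in HFD, and 1.93, 2.63 and 4.69 in SZ-A. The HFD mice lay above all NC mice, with HFD5 again the lowest. The log2 fold change was 2.69 ± 0.38 (adjusted p = 0.000838), and the ratio of the group means was 6.94 for Col3a1, as it was for Col1a1 (6.94), and 4.52 for Col1a2. Together, Col1a1, Col1a2 and Col3a1 supplied 5.44% to 13.0% of collagen FPKM other than Col18a1 in NC mice, 13.5% to 32.2% in HFD mice and 10.9% to 22.03% in SZ-A mice.

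Type V collagen is a minor fibrillar type that starts and limits the growth of type I fibrils. Col5a1 (chr2:27886425-28039514) was at 0.575, 0.766 and 1.10 FPKM in NC and 1.11, 1.74 and 2.74 in HFD, without overlap, and rose by a log2 fold change of 1.14 ± 0.20 (adjusted p = 0.00266). Col5a2, which lies on chromosome 1 with its end 24614 bases from that of Col3a1, was at 0.135, 0.203 and 0.285 FPKM in NC and 0.360, 0.704 and 1.04 in HFD, again without overlap. Its log2 fold change was 1.29 ± 0.23 (adjusted p = 0.00302). The remaining chain, Col5a3, did not pass the test: it was at 2.0, 2.36 and 5.08 FPKM in NC and 1.55, 2.67 and 4.63 in HFD, with a log2 fold change of 0.03 ± 0.27 (adjusted p = 0.961). It was thus the only fibrillar gene of the 7 tested that was not called.

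Col27a1 (chr4:63214004-63334991) encodes a fibrillar chain with a short helix, known best from cartilage. It was at 0.393, 0.521 and 0.846 FPKM in NC and 0.869, 1.36 and 1.65 in HFD, without overlap, and its log2 fold change was 1.13 ± 0.19 (adjusted p = 0.00173). HFD5, the lowest HFD mouse in 10 of the 12 called genes, was the highest for Col27a1.

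The basement-membrane chains moved less. Col4a1 (chr8:11198423-11312826) and Col4a2 (chr8:11312805-11449287) encode the common type IV chains and start head to head, sharing 22 bases. Col4a1 was at 4.62, 5.26 and 6.10 FPKM in NC, 8.19, 10.1 and 12.3 in HFD, and 4.23, 6.34 and 9.63 in SZ-A. Every HFD mouse was above every NC mouse, and the narrow spread of both groups gave Col4a1 the smallest adjusted p of the 19 genes at a modest log2 fold change of 0.90 ± 0.10 (adjusted p = 0.000236). Col4a2 was at 3.08, 3.71 and 4.01 FPKM in NC, 4.70, 5.84 and 7.56 in HFD, and 3.23, 3.66 and 4.90 in SZ-A. It rose in HFD without overlap by a log2 fold change of 0.68 ± 0.12 (adjusted p = 0.00287). The Col4a1 to Col4a2 ratio per principal transcript length was 1.42 to 1.85 in NC and 1.79 to 2.19 in HFD mice, overlapping at the edge. In SZ-A mice it was 1.44 to 2.85 and spanned both groups, with SZ-A5 above every HFD mouse.

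The remaining basement-membrane genes gave no call. Col18a1 (chr10:77052178-77166548) was at 65.8, 135 and 157 FPKM in NC and 118, 133 and 143 in HFD, with a log2 fold change of 0.12 ± 0.17 (adjusted p = 0.679). Col15a1, whose product bridges fibrils and basement membranes, was at 0.542, 0.701 and 0.967 FPKM in NC and 0.400, 0.726 and 1.92 in HFD. Its log2 fold change was 0.28 ± 0.31 (adjusted p = 0.598), and its HFD mice spread below and above NC. Col4a5, a minor type IV chain on chromosome X, was at 0.206, 0.276 and 0.324 FPKM in NC and 0.104, 0.280 and 0.571 in HFD, with a log2 fold change of 0.01 ± 0.24 (adjusted p = 0.988). The partner genes Col4a3, Col4a4 and Col4a6 were under the minimum.

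Among the other collagens, the 3 tested chains of type VI collagen, which forms beaded filaments around cells, were all called. Col6a3 was at 0.330, 0.458 and 0.722 FPKM in NC and 0.681, 1.53 and 2.52 in HFD, where only HFD5 fell within the NC range. It rose by a log2 fold change of 1.43 ± 0.25 (adjusted p = 0.00271). Col6a1 was at 1.14, 1.72 and 2.43 FPKM in NC and 1.98, 3.83 and 7.29 in HFD (log2 fold change 1.10 ± 0.27, adjusted p = 0.0151), where the groups overlapped at their edges. Col6a2 was at 0.185, 0.465 and 0.640 FPKM in NC and 0.370, 1.12 and 2.17 in HFD (log2 fold change 1.12 ± 0.33, adjusted p = 0.0361), and it was the least secure of the 12 calls: it was lost on leaving out any of 10 of the 12 mice. The genes Col6a1 and Col6a2 lie on chromosome 10, 85161 bases apart.

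Col14a1 (chr15:55307750-55520803), a fibril-associated collagen that coats type I fibrils, had the highest median after Col18a1 in each group by FPKM as deposited, a scale that understates Col3a1. It was at 3.36, 5.71 and 8.40 FPKM in NC, 8.84, 11.8 and 16.2 in HFD, and 5.72, 7.59 and 9.36 in SZ-A. All HFD mice were above all NC mice, with a log2 fold change of 1.06 ± 0.21 (adjusted p = 0.00584). Col16a1 and Col12a1, of the same fibril-associated group, missed the call. Col16a1 was at 0.255, 0.420 and 0.604 FPKM in NC and 0.336, 0.933 and 1.37 in HFD (log2 fold change 0.87 ± 0.28, adjusted p = 0.0518), and Col12a1 at 0.0971, 0.146 and 0.204 in NC and 0.149, 0.288 and 0.416 in HFD (0.58 ± 0.20, adjusted p = 0.0698). Both were called without HFD5. The transmembrane collagen Col13a1 was the only tested gene with a negative value, at 1.31, 1.64 and 2.94 FPKM in NC and 0.966, 1.48 and 1.89 in HFD (log2 fold change -0.28 ± 0.21, adjusted p = 0.404).

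**Figure D3:**
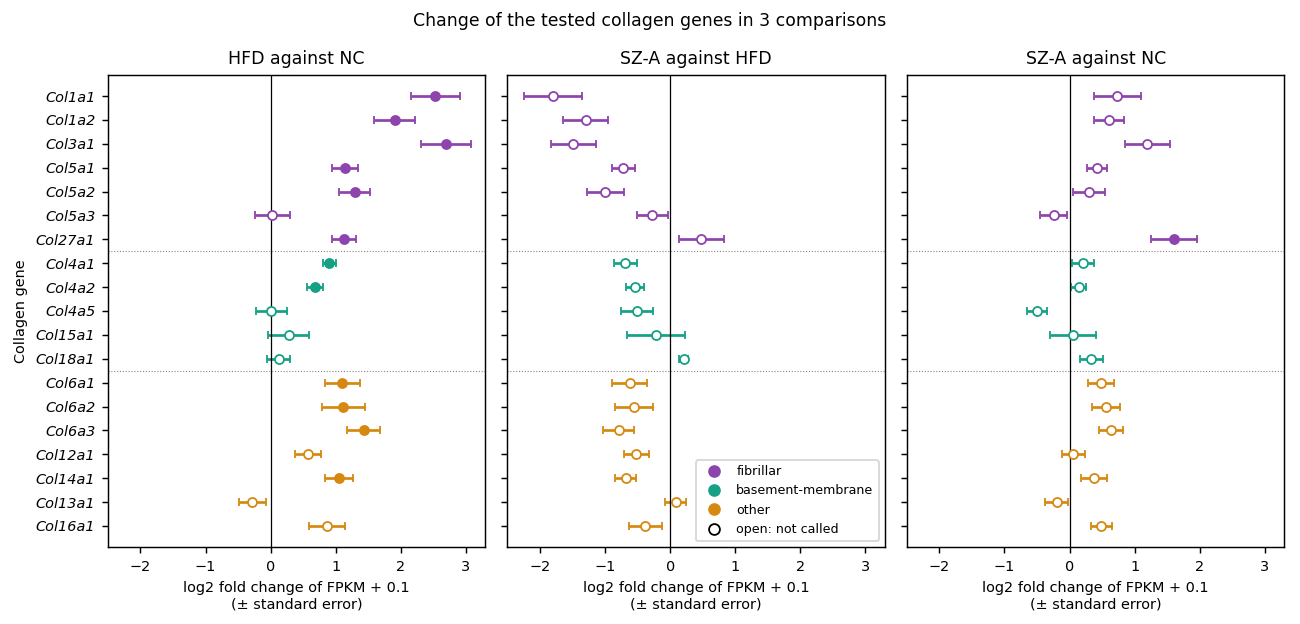
log2 fold change of FPKM + 0.1 (horizontal axis, ± standard error) for the 19 tested collagen genes in HFD against NC, SZ-A against HFD and SZ-A against NC; colours give the class and filled points the called genes. In HFD against NC 12 points are filled, all above 0 and led by Col3a1 at 2.69, in SZ-A against HFD none is filled and 16 lie below 0, and in SZ-A against NC only Col27a1 at 1.61 is filled.

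The second comparison asked how SZ-A changed collagen expression in HFD-fed mice. None of the 19 genes was called in SZ-A against HFD by limma, where 0.0438% of all genes tested (7 genes) were called, and none was called by voom on whole fragments (0.0938% of all genes). Before adjustment 12 of the 19 had p under 0.05, 11 lower and 1 higher in SZ-A, beside 13.9% of all genes (7.37% lower and 6.58% higher). The values of 16 genes were lower than in HFD. In 15 of them every SZ-A mouse lay below the HFD mean, a pattern shown by 10.5% of all genes tested. The median log2 fold change was -0.99 for fibrillar, -0.51 for basement-membrane and -0.56 for other collagens, beside 0.00035 for all genes. No gene separated the SZ-A from the HFD mice without overlap (0.563% of all genes were lower and 0.538% higher without overlap). This comparison shares its 6 HFD mice with the first, so a high value in an HFD mouse enters both with opposite sign. The study used a count test (DESeq2) at the same thresholds and reported Col1a1, Col1a2 and Col3a1 as significantly lower with SZ-A. By RT-PCR it also reported these genes and Col6a3 as moved toward normal levels. Over the whole table, the study's count test called far more genes in this comparison than the tests here did. The difference in calls was thus not confined to collagen genes. That count test was not run here, so the absence of calls holds for the tests named above.

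For Col1a1 the difference from HFD was largest, at a log2 fold change of -1.79 ± 0.45 (adjusted p = 0.124). The SZ-A mice at 0.606, 1.19 and 3.09 FPKM faced 5 HFD mice at 4.33 FPKM or more and HFD5 at 1.46, so HFD5 alone made the groups overlap. Col3a1 had the smallest adjusted p, with a log2 fold change of -1.49 ± 0.34 (adjusted p = 0.114). Col1a2 gave -1.30 ± 0.35 (adjusted p = 0.147), and its SZ-A median of 0.982 FPKM was below the lowest HFD mouse at 0.995. Leaving out HFD5 brought Col3a1, Col1a2 and Col6a3 below the threshold, that is 3 calls, with 0.163% of all genes called in that fit. No other mouse left out of this comparison gave a collagen call.

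Among the other fibrillar genes, Col5a1 was at 0.916, 1.01 and 1.34 FPKM in SZ-A (log2 fold change against HFD -0.72 ± 0.18, adjusted p = 0.123) and Col5a2 at 0.144, 0.243 and 0.614 (-0.99 ± 0.28, adjusted p = 0.166). Col5a3 was at 1.66, 2.15 and 2.78 FPKM (-0.27 ± 0.23, adjusted p = 0.661). Col27a1 went the other way, at 0.554, 1.91 and 4.12 FPKM in SZ-A, wider than in any other group (log2 fold change 0.48 ± 0.35, adjusted p = 0.59). The lowest of these mice, SZ-A5, was among the highest for Col1a1, Col3a1 and Col4a1, so the order of SZ-A mice differed between Col27a1 and the other fibrillar genes.

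Of the basement-membrane genes, Col4a1 gave -0.69 ± 0.18 (adjusted p = 0.132) and Col4a2 -0.55 ± 0.14 (adjusted p = 0.132) on the log2 scale. Col4a5 was at 0.115, 0.159 and 0.217 FPKM in SZ-A (-0.51 ± 0.24, adjusted p = 0.38), and Col15a1 at 0.174, 0.843 and 1.46 (-0.22 ± 0.45, adjusted p = 0.872). Col18a1 was the gene higher in SZ-A before adjustment, at 135, 152 and 171 FPKM, with all 6 mice above the HFD mean (log2 fold change 0.21 ± 0.07, adjusted p = 0.237).

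In the other class Col14a1 gave -0.68 ± 0.16 (adjusted p = 0.119), with SZ-A mice that reached up to 9.36 FPKM beside the lowest HFD mouse at 8.84. The type VI chains were at 1.54, 2.53 and 3.04 FPKM for Col6a1 (-0.62 ± 0.27, adjusted p = 0.325), 0.518, 0.643 and 1.02 for Col6a2 (-0.56 ± 0.30, adjusted p = 0.44) and 0.663, 0.759 and 1.16 for Col6a3 (-0.79 ± 0.24, adjusted p = 0.178). Each type VI range was narrower in SZ-A than in HFD. Col12a1 was at 0.125, 0.150 and 0.248 FPKM (-0.52 ± 0.20, adjusted p = 0.259), Col16a1 at 0.541, 0.654 and 0.737 (-0.38 ± 0.25, adjusted p = 0.545) and Col13a1 at 1.26, 1.48 and 1.71 (0.08 ± 0.16, adjusted p = 0.867).

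The third comparison set SZ-A against NC. Only Col27a1 was called, at 3.87 times the NC mean and a log2 fold change of 1.61 ± 0.35 (adjusted p = 0.0202), where 5.6% of all genes tested were called, 3.03% higher and 2.56% lower. It lost the call without SZ-A3 (0 calls). Before adjustment 9 genes had p under 0.05 (21.1% of all genes did), 8 higher and Col4a5 lower in SZ-A. Col3a1 was above NC in every SZ-A mouse, without overlap (2.04% of all genes were so and 1.99% were lower so), but missed the threshold (log2 fold change 1.2 ± 0.34, adjusted p = 0.0592), as did Col6a3 (0.64 ± 0.18, adjusted p = 0.0584). By voom 3 genes were called, Col3a1, Col27a1 and Col6a3, beside 6.35% of all genes. Without NC5 Col3a1 was called beside Col27a1, and without NC6, the mouse with the contradicting diet label, Col27a1, Col5a1 and Col6a3 were called. Col1a1 gave 0.74 ± 0.35 (adjusted p = 0.259), Col4a1 0.21 ± 0.17 (adjusted p = 0.536), Col4a2 0.14 ± 0.12 (adjusted p = 0.556) and Col4a5 -0.50 ± 0.15 (adjusted p = 0.0803). The class medians were 0.61 for fibrillar, 0.14 for basement-membrane and 0.48 for other collagens, beside -0.01 for all genes. The basement-membrane median was 0.28 without SZ-A4, 0.09 without SZ-A2, 0.08 without SZ-A5 and 0.08 without SZ-A6.

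The balance between fibrillar and basement-membrane collagens shifted with the groups. On the log2(FPKM + 0.1) scale the mean of the 7 fibrillar genes minus that of the 5 basement-membrane genes was -2.56 to -1.81 in NC (median -2.06), between -1.30 and -0.77 in HFD (median -0.94), and between -1.75 and -1.17 under SZ-A (median -1.49). NC mice did not overlap with either other group, and SZ-A and HFD mice overlapped in part. Fibrillar genes supplied 20.9% to 29.7% of collagen FPKM other than Col18a1 in NC, between 28.2% and 42.0% in HFD, and between 26.5% and 35.8% under SZ-A. The difference between Col1a1 and Col4a1 alone, which both rose, had medians of -2.66, -0.82 and -2.10 on the log2 scale for NC, HFD and SZ-A in turn. HFD5 at -2.59 lay within the NC range, since its Col4a1 (9.34 FPKM) was within the range of the other HFD mice and its Col1a1 was below it.

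Mice differed along the whole set. Relative to the NC mean, the median over the 12 called genes was 0.55 log2 units in HFD5 and 1.05 to 1.97 in the other HFD mice, led by HFD1. The 12 genes were chosen as higher in HFD from these same NC and HFD mice. The height of the HFD medians above NC therefore follows from that choice. The choice also favours genes that were low in these NC mice, so the height of SZ-A mice above NC is affected as well. Only the order of mice within a group is described here. HFD1 was the highest HFD mouse in 11 of the 12 genes, and HFD5 was the lowest in 10. In NC the lowest mouse was NC5, in 10 of 12 genes. The SZ-A mice had medians of 0.19 to 0.94, with SZ-A2 (0.94) and SZ-A5 (0.73) the highest. In SZ-A2 all 12 genes were above every NC mouse, whereas in SZ-A1 and SZ-A4 only 3 were, which is given only to order the SZ-A mice. The share of all genes above every NC mouse was not counted for single mice.

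**Figure D4:**
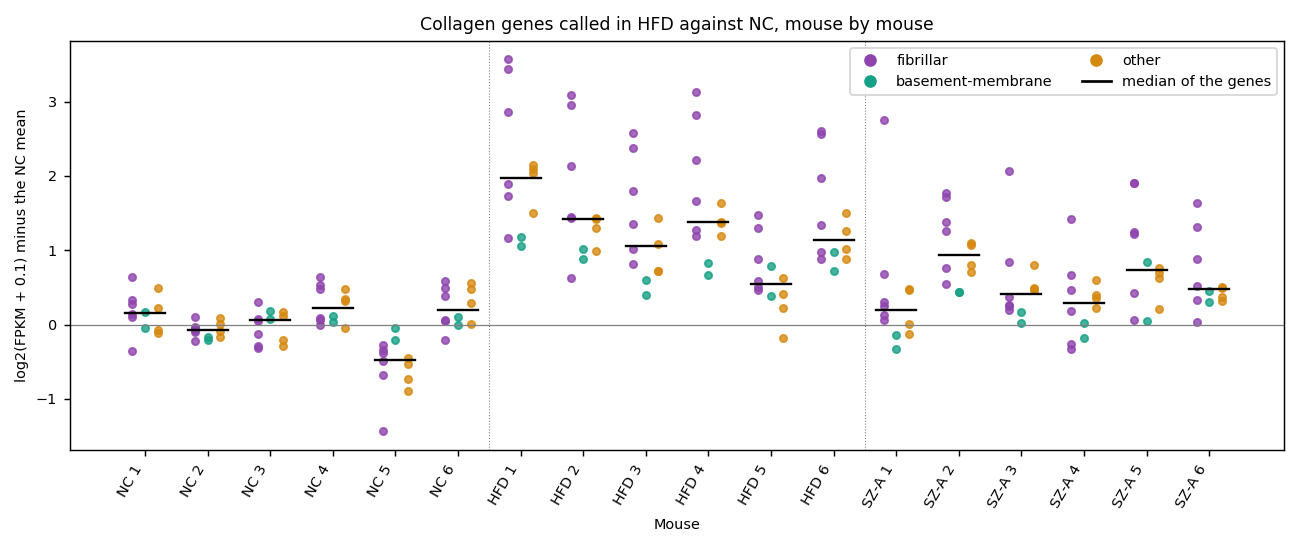
log2(FPKM + 0.1) minus the NC mean (vertical axis) of the 12 collagen genes called in HFD against NC, in each of the 18 mice (horizontal axis); points are genes coloured by class, bars the median over genes. HFD5 (median 0.55) lies below the other HFD mice, SZ-A2 (0.94) is the highest SZ-A mouse, and SZ-A1 holds a high fibrillar point, Col27a1. The genes were chosen from the NC and HFD mice shown, so the height of HFD above NC follows from that choice, and that of SZ-A is affected by it.

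Genes that make and mature collagen followed only in part. Of 20 tested genes for biosynthesis, 5 rose and 2 fell in HFD against NC, with a median log2 fold change of 0.30. Here and for the lists that follow, 8.87% of all genes were called higher and 6.42% lower, and their median was -0.01. Serpinh1 (HSP47), the chaperone that holds the folded procollagen helix, was at 1.90, 3.83 and 5.70 FPKM in NC and 8.71, 10.9 and 15.1 in HFD, without overlap (log2 fold change 1.64 ± 0.23, adjusted p = 0.000814). It was also called in SZ-A against NC (1.37 ± 0.32, adjusted p = 0.0265), at 5.81, 7.91 and 16.9 FPKM in SZ-A. Creb3l1, a transcription factor of the secretory pathway, rose (1.01 ± 0.15, adjusted p = 0.00113), as did Fkbp10, a folding factor (1.22 ± 0.30, adjusted p = 0.0157). Sec23a, a coat protein of the vesicles that leave the endoplasmic reticulum, fell by 0.52 on the log2 scale (adjusted p = 0.00188), and P3h1, a prolyl 3-hydroxylase, fell by 0.45 (adjusted p = 0.0147).

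For processing and cross-linking, 5 of 11 tested genes rose in HFD and 1 fell, with a median of 0.61. Adamts2, which removes the N-terminal propeptide of procollagen, had a median of 0.489 FPKM in NC and 1.53 in HFD (log2 fold change 1.21 ± 0.24, adjusted p = 0.00497), and Pcolce, an enhancer of C-terminal processing, medians of 1.05 and 2.53 (1.2 ± 0.24, adjusted p = 0.00508). The cross-linking enzymes Tgm2 (0.78 ± 0.15, adjusted p = 0.00448) and Loxl2 (0.78 ± 0.22, adjusted p = 0.031) also rose. Bmp1, the C-terminal protease itself, fell by 0.39 (adjusted p = 0.00581).

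The proteins that bind fibrils gave 7 of 15 genes higher in HFD and none lower, with a median of 0.51. They included Lum, a small proteoglycan that spaces fibrils (1.17 ± 0.17, adjusted p = 0.000988), Sparc, a collagen-binding matrix protein (0.90 ± 0.14, adjusted p = 0.00105), Thbs1 (1.32 ± 0.23, adjusted p = 0.00235) and Postn (0.77 ± 0.18, adjusted p = 0.0125). Of 16 partners in the basement membrane 2 were higher and 1 lower, near the shares of all genes (8.87% and 6.42%), with a median of 0.17. Nid1, which links type IV collagen to laminin, rose (0.77 ± 0.19, adjusted p = 0.0157), as did Lama1 (0.76 ± 0.23, adjusted p = 0.0413), while the laminin chain Lamb3 went from a median of 5.90 to 2.23 FPKM (adjusted p = 0.0356) and Nid2 gave -0.52 ± 0.18 (adjusted p = 0.0617).

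Among 9 tested receptors 2 rose and 1 fell (median 0.27). Mrc2, which takes up collagen for degradation, rose (1.08 ± 0.23, adjusted p = 0.00757), as did Lair1, an inhibitory collagen receptor of immune cells (0.73 ± 0.19, adjusted p = 0.0214), and the integrin chain Itga10 fell by 0.68 (adjusted p = 0.0297). The collagen-binding kinase Ddr2 gave 0.42 ± 0.15 (adjusted p = 0.087). Profibrotic signals gave 4 of 14 genes higher and none lower (median 0.14), among them Pdgfrb, a growth factor receptor of stellate cells (0.88 ± 0.20, adjusted p = 0.0121). Its ligand Pdgfb (0.90 ± 0.24, adjusted p = 0.0252) and Ltbp1, which holds latent TGF-beta in the matrix (0.69 ± 0.21, adjusted p = 0.039), rose too. Of 9 genes for degradation 4 rose and Mmp14 fell (median 0.67). Timp1, an inhibitor of matrix metalloproteinases, went from 0 to 0.334 FPKM in NC to 0.426 to 2.29 in HFD (2.85 ± 0.47, adjusted p = 0.00186). The collagenase Mmp13 was at 0 to 0.0595 FPKM in NC and 0.101 to 1.33 in HFD (2.48 ± 0.41, adjusted p = 0.00172), and the gelatinase Mmp2 rose by 1.33 ± 0.24 (adjusted p = 0.00322). Mrc2 also belongs to this list.

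No gene of these 7 lists was called in SZ-A against HFD, where only 0.0438% of all genes tested were called. Their median log2 fold changes were -0.03 for biosynthesis, -0.49 for processing and cross-linking, -0.36 for fibril partners, -0.22 for basement-membrane partners, -0.24 for receptors, -0.32 for profibrotic signals and -0.68 for degradation. By smallest p within their lists, Nid1 gave -0.58 ± 0.13 (adjusted p = 0.111), Sparc -0.65 ± 0.15 (adjusted p = 0.114) and Mmp2 -0.90 ± 0.23 (adjusted p = 0.133). Postn gave -0.62 ± 0.17 (adjusted p = 0.165), Loxl2 -0.82 ± 0.24 (adjusted p = 0.174) and Lox, another cross-linking oxidase, -0.72 ± 0.27 (adjusted p = 0.259). Mrc2 gave -0.66 ± 0.20 (adjusted p = 0.174), Antxr2, a receptor for type IV and VI collagen, -0.29 ± 0.09 (adjusted p = 0.173), and Ltbp1 -0.58 ± 0.17 (adjusted p = 0.173). The perlecan gene Hspg2 gave -0.50 ± 0.16 (adjusted p = 0.198), Fkbp10 -0.62 ± 0.22 (adjusted p = 0.227), Pdgfrb -0.65 ± 0.24 (adjusted p = 0.258) and Creb3l1 -0.59 ± 0.24 (adjusted p = 0.298). In SZ-A against NC, 3.03% of all genes were called higher and 2.56% lower. Calls there were 2 higher and 1 lower for biosynthesis, 1 higher for processing and cross-linking (Tgm2) and 1 higher for fibril partners (Lum). Basement-membrane partners gave 2 lower (Lamb3 and Nid2) and profibrotic signals 1 lower, with none among receptors or degradation genes.

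**Figure D5:**
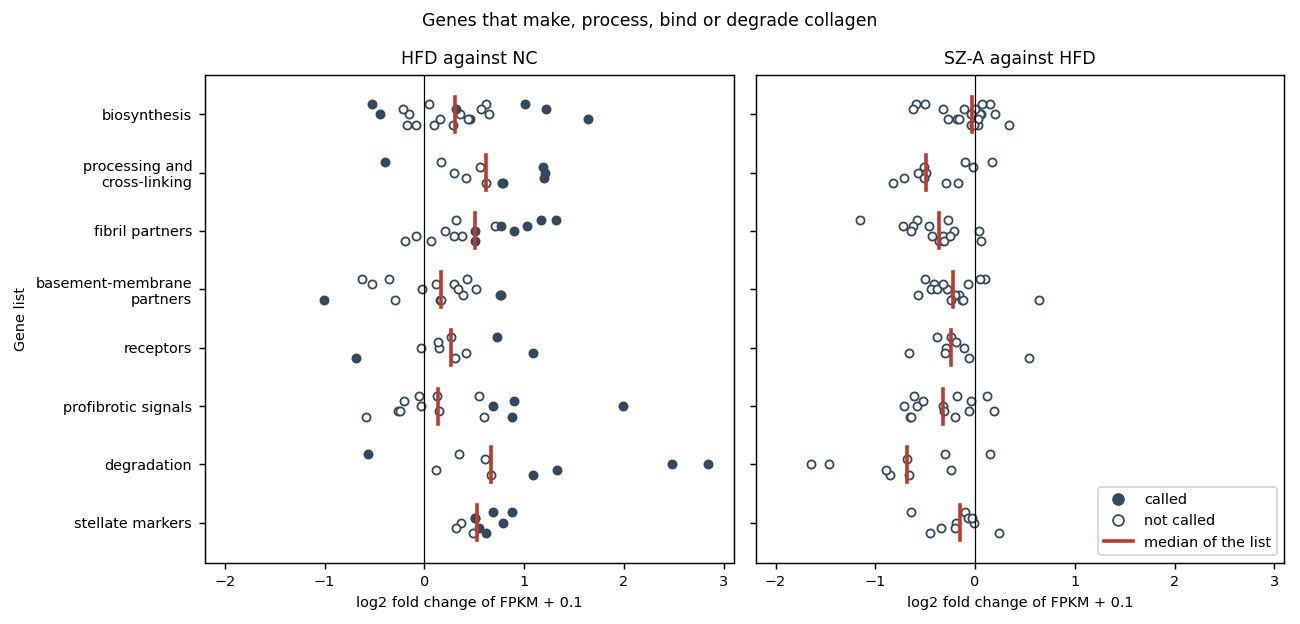
log2 fold change of FPKM + 0.1 (horizontal axis) of the tested genes of 7 collagen-related lists and of the stellate markers, in HFD against NC and in SZ-A against HFD; each point is a gene, filled where called, and red bars are list medians. Medians lie between 0.14 and 0.67 in HFD against NC, and all lie below 0 in SZ-A against HFD. No point is filled there, where 0.0438% of all genes were called.

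Markers of the cells that could supply these transcripts moved as well. Of 10 stellate cell markers 6 rose in HFD and all 10 had positive values, with a median of 0.53, and their summed level was 47.8 to 64.2 FPKM in NC, between 62.1 and 93.0 in HFD, and between 63.9 and 87.5 under SZ-A. From NC to HFD the median of the stellate sum went from 54.6 to 79.2 FPKM and that of the fibrillar sum from 6.84 to 24.5. In SZ-A the stellate median was 73.8 and the fibrillar median 11.3. Activated stellate markers gave 2 of 6 called (Timp1 and Postn), while Acta2 gave -0.27 and Cnn1 -0.80, neither called. Their sum was 2.23 to 8.33 FPKM in NC and 3.31 to 7.52 in HFD, a range inside that of NC. Portal fibroblast markers gave 1 of 6 called (Fbln2), endothelial markers 1 of 8 (Lyve1) and macrophage markers 2 of 6 (Cd68 and Adgre1), all higher in HFD, beside 8.87% of all genes called higher. For the portal fibroblast and endothelial lists this is 1 gene each. The endothelial sum was 58.6 to 75.8 FPKM in NC and 65.0 to 82.0 in HFD, and the macrophage sum 63.0 to 119 and 89.7 to 190. No cholangiocyte (4 tested) or mesothelial (3 tested) marker was called. Of 6 hepatocyte markers Apoa1 fell in HFD (log2 fold change -0.91 ± 0.18, adjusted p = 0.00594). Cfd and Car3, listed as adipocyte markers, were called higher, but the rest of that list (Adipoq, Plin1, Lep and Retn) summed to 0 to 1.09 FPKM in every mouse. No gene of these 9 marker lists was called in SZ-A against HFD, where 0.0438% of all genes were called. In SZ-A against NC the stellate markers Cygb and Angptl6 were called higher and the cholangiocyte marker Sox9 lower. Of all genes, 3.03% were called higher and 2.56% lower in that comparison. The part of these markers in the collagen results was not tested. In bulk liver, more cells of a type and more RNA per cell cannot be told apart.

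The promoter windows of the collagen genes, tested or not and called or not, were compared by class and by letters only. RefSeq windows of 300 bases around each start (GRCm38.p6) matched 35 of the 44 genes with 38 windows, and Col1a1 has no entry. Shown are Col1a2 (chr6:4505368-4505667 on the plus strand) and Col3a1 (chr1:45311288-45311587 on the plus strand), called genes of types I and III, and Col4a1 (chr8:11312777-11313076 on the minus strand), which starts head to head with Col4a2. Capitals mark matches on either strand to 4 short motifs. The first, CCAAT, is bound by factors such as NF-Y. The TATA box was searched as TATAAA. GC boxes, which Sp1 binds, were searched as GGGCGG. The Smad-binding element was searched as CAGAC.
Col1a2 promoter: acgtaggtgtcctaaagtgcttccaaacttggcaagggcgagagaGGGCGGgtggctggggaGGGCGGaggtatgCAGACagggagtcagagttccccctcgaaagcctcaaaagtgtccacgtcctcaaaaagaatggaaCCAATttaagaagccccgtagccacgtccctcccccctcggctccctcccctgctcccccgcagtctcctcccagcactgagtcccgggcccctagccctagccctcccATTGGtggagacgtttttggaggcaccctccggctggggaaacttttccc
Col3a1 promoter: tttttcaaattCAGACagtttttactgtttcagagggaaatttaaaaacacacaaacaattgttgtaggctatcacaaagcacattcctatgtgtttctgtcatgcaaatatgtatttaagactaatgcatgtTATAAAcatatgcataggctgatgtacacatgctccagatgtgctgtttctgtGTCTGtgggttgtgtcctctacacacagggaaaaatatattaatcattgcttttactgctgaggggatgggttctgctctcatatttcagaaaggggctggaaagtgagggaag
Col4a1 promoter: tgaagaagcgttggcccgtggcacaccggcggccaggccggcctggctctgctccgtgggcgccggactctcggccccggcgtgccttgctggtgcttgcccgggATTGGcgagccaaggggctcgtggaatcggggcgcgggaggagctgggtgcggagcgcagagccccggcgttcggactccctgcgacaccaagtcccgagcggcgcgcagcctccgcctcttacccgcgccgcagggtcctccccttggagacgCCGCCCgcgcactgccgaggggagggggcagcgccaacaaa
Over the 8 fibrillar windows, CCAAT was found in 3, TATAAA in 2, GGGCGG in 6 and CAGAC in 5, and over the 8 basement-membrane windows in 4, 0, 5 and 4. The 22 windows of other collagens held them in 6, 3, 12 and 11. In all 32851 windows the shares were 37.4%, 13.6%, 35.7% and 49.6%. These are matches of letters in short windows and say nothing of the binding of a factor.

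Some values carry a limit from overlapping annotation. Exons of Col4a1 and Col4a2 share 22 bases on opposite strands, Col5a1 shares up to 113 exon bases with a processed transcript on the other strand, and Col3a1 shares 141 with a predicted microRNA gene on its own strand. The sources used here do not state that the counting used strand, so fragments from such stretches could have been split or dropped.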

How the data were processed

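Poly-A RNA of 18 livers (NC, HFD and SZ-A, 6 mice each) was sequenced by the authors as 150-base paired reads. According to the submitters' processing notes, HISAT2 2.0.5 (mm10) and featureCounts 1.5.0-p3 were used. The authors deposited 1 table of FPKM per gene, with gene length and position. FPKM times length gave whole multiples for 100% of values (tolerance 0.05 of a fragment), from which the fragments per mouse were recovered. Groups came from the sample titles. Within groups, no pair of mice was a duplicate (chi-square per degree of freedom at least 20.3).

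For each comparison, limma 3.58.1 (R 4.3.3; lmFit, eBayes with trend) was fitted to log2(FPKM + 0.1) of the 2 groups for the 15996 genes with a mean of at least 0.1 FPKM, without covariates. The pseudocount of 0.1 understates the change of low genes. A call needed a p under 0.05 after Benjamini-Hochberg adjustment over all genes and a fold change over 1.2. The deposited unit being FPKM, the main test was on the log scale, and the recovered fragments were tested with voom as an alternative. The count test of the study was not run. Nothing in the labels says how the mice were housed or handled as batches, and no batch could be examined. Same-numbered mice of different groups showed correlations of -0.06 to 0.15 in their deviations and were not treated as pairs. The fit was tested on simulated data. Coordinates and exons were taken from GENCODE M21 (GRCm38), whose positions equalled those of the table for all 44 genes, and promoters from RefSeq. Python 3.11.15, numpy 2.4.6, pandas 2.3.3 and matplotlib 3.10.9 did the rest.

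The collagen genes, their classes, the 7 related lists and the 9 marker lists were chosen with earlier results of these data known. Named were all tested collagen genes and, of each related list, up to 4 genes of smallest p in HFD against NC and up to 2 in SZ-A against HFD. The values of 1 gene of these lists are not reported here. Alternatives were other pseudocounts (1 and 0.01), a minimum of 1 FPKM or none, rescaling, pooled, trend-free, weighted, blocked and voom fits, other fold thresholds, and leaving out each mouse.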

Additional observations from a re-analysis of the deposited data

Results flagged for a closer look

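Over the 19 tested collagen genes and 3 groups (57 groups of 6 mice), 3 groups held a mouse whose gap to its nearest neighbour was above Dixon's critical value for the range, where chance flags about 1 in 20 groups. Col5a3 was at 5.08 FPKM in NC6 (gap 0.806 of the range), while the other NC mice were at 2.0 to 2.60. Col27a1 was at 0.846 FPKM in NC6 as well (gap 0.631 of the range). Both values come from the mouse whose diet label contradicts its title. The 3 flags in 57 groups are near the share that chance gives, and whether the label or the title of NC6 holds was not tested. Col13a1 was at 2.94 FPKM in NC5 (gap 0.628 of the range).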

How the results depend on the processing

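The count of collagen genes called in HFD against NC was 9 of 12 tested with a minimum of 1 FPKM (20.2% of all genes). With no minimum it was 11 of 41 tested (6.96%), and with a fold change over 2 it was 10 of 19 (620 of all 15996 genes). In every other setting it was 12 to 14 of 19 (10.7% to 19.1%), and with a mouse left out 11 to 14 of 19 (11.3% to 15.4%). In SZ-A against HFD the count was 0 except with limma sample weights (2, Col3a1 and Col1a1, beside 0.281% of all genes), and 0 to 3 with a mouse left out (0% to 0.269% of all genes). In SZ-A against NC it was 2 with a pseudocount of 1 (5.23% of all genes), 2 of 12 tested with a minimum of 1 FPKM (9.6%), 0 of 41 tested with no minimum (2.07%), 2 without the trend (Col27a1 and Col4a5; 4.75%), 4 with sample weights (9.34%), 3 with voom (6.35%), and 0 to 3 with a mouse left out (3.12% to 6.81%). A pseudocount of 1 shrank the class medians by construction, to 0.67 (fibrillar) and 0.54 (other) in HFD against NC, to -0.45 (fibrillar) and -0.15 (basement-membrane) in SZ-A against HFD, and to 0.23 (other) in SZ-A against NC. A minimum of 1 FPKM left 3 basement-membrane genes, whose median was 0.68 in HFD against NC. The replicate block left the counts at 12, 0 and 1 (10.7%, 0% and 4.53% of all genes).

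Rescaling FPKM to a common sum moved the median of all genes by 0.16 up in HFD against NC and -0.16 in SZ-A against HFD. Of all genes called, 86.8% were then higher in HFD against NC (58.0% as deposited), and 4.82% were higher in SZ-A against HFD (71.4%). The collagen calls became 14 higher and 0 lower in HFD against NC (18.7% of all genes called) and stayed at 0 in SZ-A against HFD (1.04%). Less the shift, the class medians in HFD against NC were 1.28, 0.29 and 1.08.

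Signs turned only for genes that were not called. With a mouse left out, the values in HFD against NC ran from -0.054 (without NC1) to 0.20 for Col18a1, from -0.13 to 0.22 for Col5a3 and from -0.16 to 0.18 for Col4a5, which also gave -0.028 with a pseudocount of 0.01 and -0.0076 with voom. In SZ-A against HFD they ran from -0.015 to 0.16 for Col13a1, which gave -0.083 rescaled, and from -0.42 to 0.10 for Col15a1. In SZ-A against NC they ran from -0.12 to 0.38 for Col15a1 and from -0.024 to 0.11 for Col12a1, which gave -0.0089 with sample weights. For these the cause was not tested. With fewer than 50 fragments behind some values of Col4a5, Col15a1, Col5a2, Col6a2, Col12a1, Col16a1 and Col1a1, depth limits what can be seen there.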
